A study of Mus musculus with 9 samples.

Results

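Messenger RNA of ATDC5 cells given acetate was compared directly with that of ATDC5 cells given ethanol, in 3 libraries of each. ATDC5 is an established line of mouse chondrogenic cells, grown as a model of how cartilage differentiates. Genes entered where their average over these 6 libraries reached 1 CPM, which were 12873 of the 26202 genes in the deposited table. CPM here means read counts relative to the size of the library after TMM scaling, a correction for differences in library composition. Another 3 libraries, labelled Control, are shown beside the others for reference; what the controls were given is not stated in the sources used here. All 9 libraries came from cells in DMEM/F-12 with serum and antibiotics whose medium was then enriched with sodium ascorbate, beta-glycerophosphate and insulin-transferrin-selenium, so the supplements that drive matrix formation were shared by every group. Doses and exposure times are not given in the sources used here. The labels do not call the replicates separate cultures, so the spread behind the p-values is that among these libraries and may be technical.

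Ethanol is oxidised by alcohol dehydrogenases to acetaldehyde and then by aldehyde dehydrogenases to acetate, which acetyl-CoA synthetases can turn into acetyl-CoA. Chondrocytes of the growth plate first lay down a matrix of type II collagen and aggrecan, then enlarge, make type X collagen and alkaline phosphatase, and give way to osteoblasts that build bone on type I collagen. The comparison asks in which genes acetate and ethanol, given to the same cells, left different levels of messenger RNA.

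The cells carried the defining RNAs of their label. Col2a1, the main collagen of cartilage, stood at 4413, 4719 and 3906 CPM with acetate (replicates 1, 2 and 3, the order used throughout) and at 4379, 3512 and 4132 CPM with ethanol. Sox9, the transcription factor that directs cartilage formation, stood at 316, 281 and 305 CPM with acetate and 321, 286 and 345 CPM with ethanol. Of 12 epithelial markers, 11 were under 1 CPM in every library, as were 10 of 11 hepatocyte markers and 8 of 11 macrophage markers. In bulk RNA, fewer cells of a type and less RNA per cell cannot be told apart.

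Replicate 2 of acetate stood apart, and this has to be known before the results are read. Across 12752 genes, its deviation from acetate replicates 1 and 3 followed the GC content of the genes' transcripts (r = 0.808, across genes, which are not independent replicates). In the 6 ethanol and control libraries, the deviation from the other 2 of the group followed GC content at r = -0.171 to 0.127; acetate replicates 1 and 3 gave r = -0.768 and -0.621, each set against a mean that holds replicate 2. The SD of the deviation on the log2 scale was 0.68 for acetate replicate 2 and 0.13 to 0.22 in the ethanol and control libraries. The difference between acetate and ethanol itself followed GC content at r = 0.552, and at r = 0.0962 once that library was left out. Genes called higher in acetate had a median GC content of 53.9%, genes called lower 46.8%, and all tested genes 49.7%. Counts over all genes, and those of many lists, are therefore given with and without this library. The 9 libraries held 28.7 to 41.9 M recovered reads each, and 1 read was worth 0.0231 to 0.0348 CPM.

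**Figure D1:**
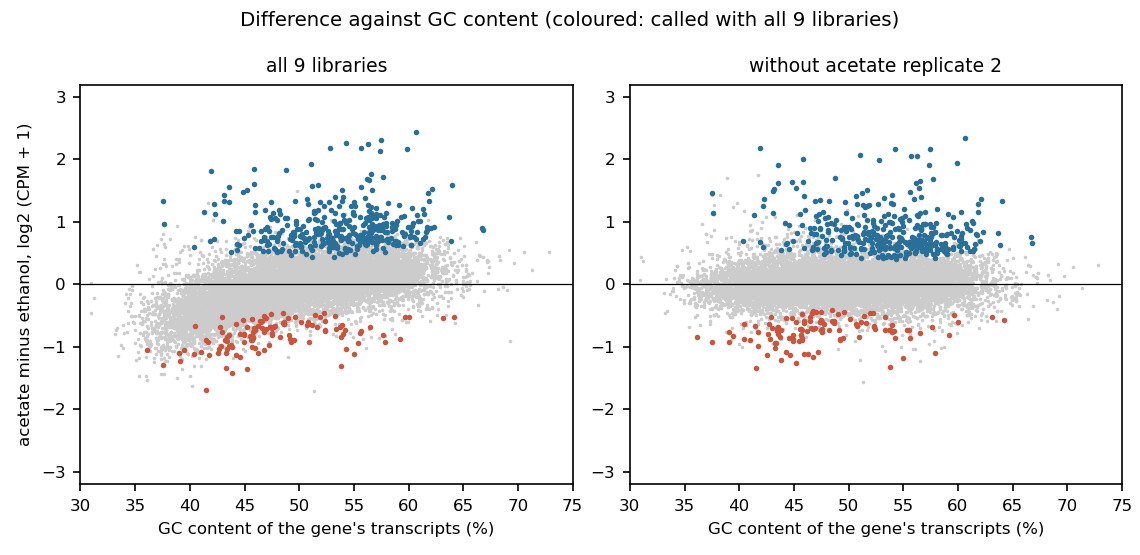
Difference between acetate and ethanol (vertical axis, log2 of CPM plus 1) against the GC content of each gene's transcripts (horizontal axis, percent), with all 9 libraries on the left and without acetate replicate 2 on the right. Each point is a gene; blue and red mark genes called higher or lower in acetate with all 9 libraries. The grey cloud tilts with GC content on the left (r = 0.552) and lies nearly flat on the right (r = 0.0962), while the coloured genes stay on their side of 0.

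Of the 12873 genes, 370 were higher with acetate than with ethanol, which is 2.87%, and 117 were lower, which is 0.909% (limma, two-sided, adjusted p under 0.05). The change was at least 2 times in 137 of them, 111 higher and 26 lower; such called genes numbered 223 with a pseudocount of 0.1, 51 with 5 and 233 with voom on recovered reads. The median log2 difference was 0.84 among the genes called higher, -0.79 among those called lower and -0.01 over all genes tested. Without acetate replicate 2, 737 genes were higher (5.73%) and 376 lower (2.92%), and these included 368 of the 370 and all 117 of the first calls. With the replicate numbers as a block, 604 were higher (4.69%) and 225 lower (1.75%), of which 366 and 115 were first calls. Without ethanol replicate 1, 2 or 3, 180, 113 and 177 genes were called in all. Leaving out control replicate 1, which enters only through the spread, gave 292, and leaving out control replicate 2 gave 76 lower. Without acetate replicate 3, 557 were higher. Of the called genes 76.0% were higher with acetate; with the GC trend removed the share was 57.1% (825 higher and 620 lower). In the 3 acetate libraries every value lay above the 3 ethanol values for 1959 genes (15.2%) and below them for 1617 (12.6%). All 487 called genes were among these. At an unadjusted p under 0.05 (limma), 2715 of the 12873 genes differed in either direction. That is the background for the unadjusted list counts below.

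**Figure D2:**
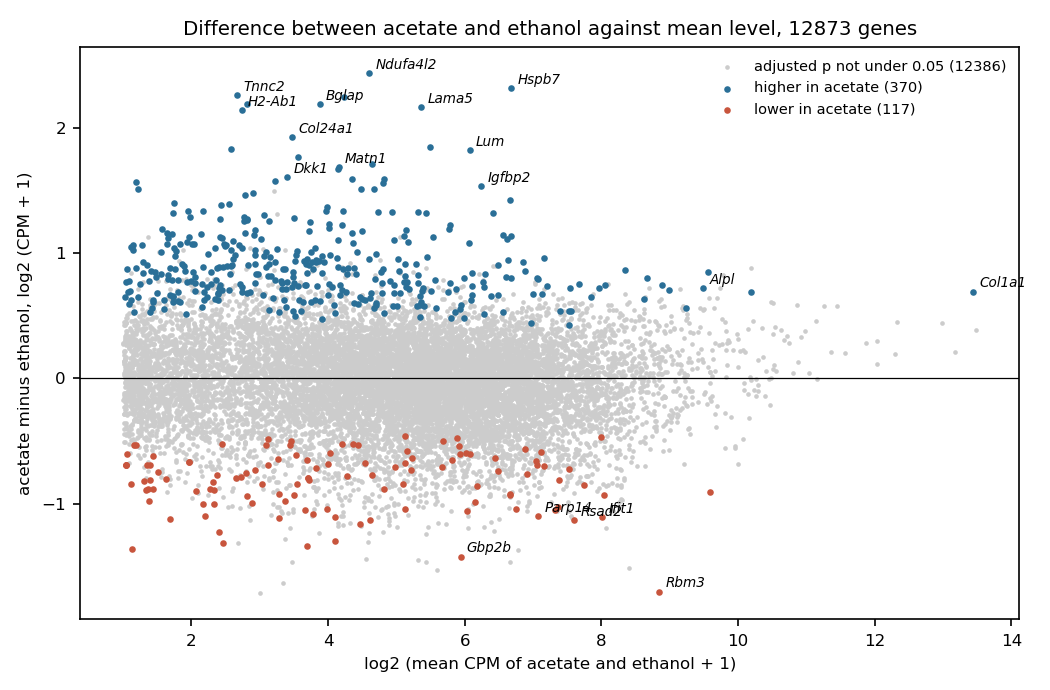
Difference between acetate and ethanol (vertical axis, log2 of CPM plus 1) against the mean level of both groups (horizontal axis, log2 of CPM plus 1) for the 12873 genes. Blue points are the 370 genes higher in acetate, red points the 117 lower and grey points the rest; among called genes the differences reach 2.44 upward, for Ndufa4l2, and -1.70 downward, for Rbm3.

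The gene with the largest rise was Ndufa4l2, which encodes a mitochondrial protein induced by low oxygen. It stood at 48.7, 43.6 and 27.1 CPM with acetate and at 10.4, 4.02 and 5.88 CPM with ethanol, a ratio of means of 5.88 (log2 difference 2.44 ± 0.34, adjusted p = 0.00647). Log2 differences here and below are acetate minus ethanol on the scale of log2 of CPM plus 1, which understates the change of low genes, and the value after ± is the standard error from limma. The 3 controls, at 47.3, 29.2 and 25.9 CPM, overlapped the acetate libraries. Hspb7, a small heat shock protein of heart and muscle, stood at 159.9, 207 and 142 CPM with acetate and 37.1, 31.04 and 30.8 CPM with ethanol (log2 difference 2.32 ± 0.16, adjusted p = 0.000499). Every acetate value of Hspb7 was above every control value, which were 129, 111 and 111 CPM.

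A group of low-level genes rose to levels above both other groups. Tnnc2, the calcium-binding troponin C of fast skeletal muscle, stood at 7.88, 10.7 and 10.00 CPM with acetate, 1.48, 1.08 and 1.04 CPM with ethanol and 3.41, 2.68 and 3.33 CPM in controls (log2 difference 2.26 ± 0.15, adjusted p = 0.000499). The other muscle markers did not share that level: of the 11 in the list, 9 were under 1 CPM in every library, and Myod1, Myog and Myf5, which commit cells to muscle, were at 0 in the 6 libraries. The summed level of the muscle list ran from 9.99 to 13.6 CPM with acetate and from 2.49 to 3.01 CPM with ethanol. Tnnc2 made up most of it in each acetate library and less than the other members together in each ethanol library. H2-Ab1, a chain of MHC class II, stood at 9.43, 13.5 and 6.77 CPM with acetate, 1.67, 1.35 and 1.18 CPM with ethanol and 3.30, 3.69 and 2.77 CPM in controls (log2 difference 2.14 ± 0.21, adjusted p = 0.00154). The macrophage marker sum beside it was 4.47 to 6.08 CPM with acetate and 4.27 to 4.81 CPM with ethanol. Tyrobp was at 0 in the 6 libraries, whereas Cd14, Cd68 and Fcer1g were detected in each. Lyz2 was higher with acetate, at 1.19, 1.25 and 1.11 CPM against 0.792, 0.576 and 0.438 CPM with ethanol. Csf1r was lower, at 0.025, 0.087 and 0.135 CPM against 0.227, 0.24 and 0.346 CPM. The part of macrophage RNA in the level of H2-Ab1 was not tested.

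Others among the 12 largest rises stood near the control level. Ecrg4, a secreted peptide precursor, was at 9.83, 13.8 and 7.94 CPM with acetate, 2.30, 1.27 and 1.04 CPM with ethanol and 8.57, 7.44 and 7.80 CPM in controls. F13a1, the transglutaminase subunit of coagulation factor XIII that also crosslinks matrix, was at 78.02, 54.9 and 75.8 CPM with acetate and 18.3, 17.6 and 19.5 CPM with ethanol, with controls at 84.6, 80.4 and 74.9 CPM. Sema3b, a secreted semaphorin, was at 17.3, 20.3 and 14.1 CPM with acetate, 4.57, 4.86 and 3.58 CPM with ethanol and 19.1, 19.2 and 18.3 CPM in controls. Their log2 differences were 2.18 ± 0.22, 1.84 ± 0.14 and 1.77 ± 0.15, with adjusted p of 0.00168, 0.00103 and 0.00103.

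Falls were smaller and fewer, and the largest was that of Rbm3, an RNA-binding protein known for its induction by cold. It stood at 253, 128 and 294 CPM with acetate, 678, 724 and 669 CPM with ethanol and 299.7, 265 and 371 CPM in controls (log2 difference -1.70 ± 0.27, adjusted p = 0.0109). Acetate replicate 2 was its lowest library; without it the difference was -1.33 (adjusted p = 0.000452). The call of Rbm3 was lost without ethanol replicate 1 or 2 (adjusted p 0.0507 and 0.0622 as the lowest and highest). Ncmap, a membrane protein of myelinating Schwann cells, was at 4.88, 5.70 and 4.82 CPM with acetate and 14.5, 10.9 and 11.7 CPM with ethanol, and here the controls, at 15.1, 11.6 and 15.8 CPM, were with ethanol (log2 difference -1.12 ± 0.15, adjusted p = 0.00616). Gjc3, a gap junction protein, and Galnt13, an enzyme that starts O-linked sugar chains, fell by 1.33 and 1.30 on the log2 scale, with adjusted p of 0.0363 and 0.0305. Both had their lowest value in acetate replicate 2 and kept the call without it, at -0.94 and -0.93, and with the GC trend removed Galnt13 fell by 0.70, but both lost it without any 1 of the 3 control or 3 ethanol libraries (adjusted p 0.0544 to 0.153). The other 8 of the 12 largest falls, from Gbp2b to Gm4951, included 4 members of the interferon list and are described with it.

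**Figure D3:**
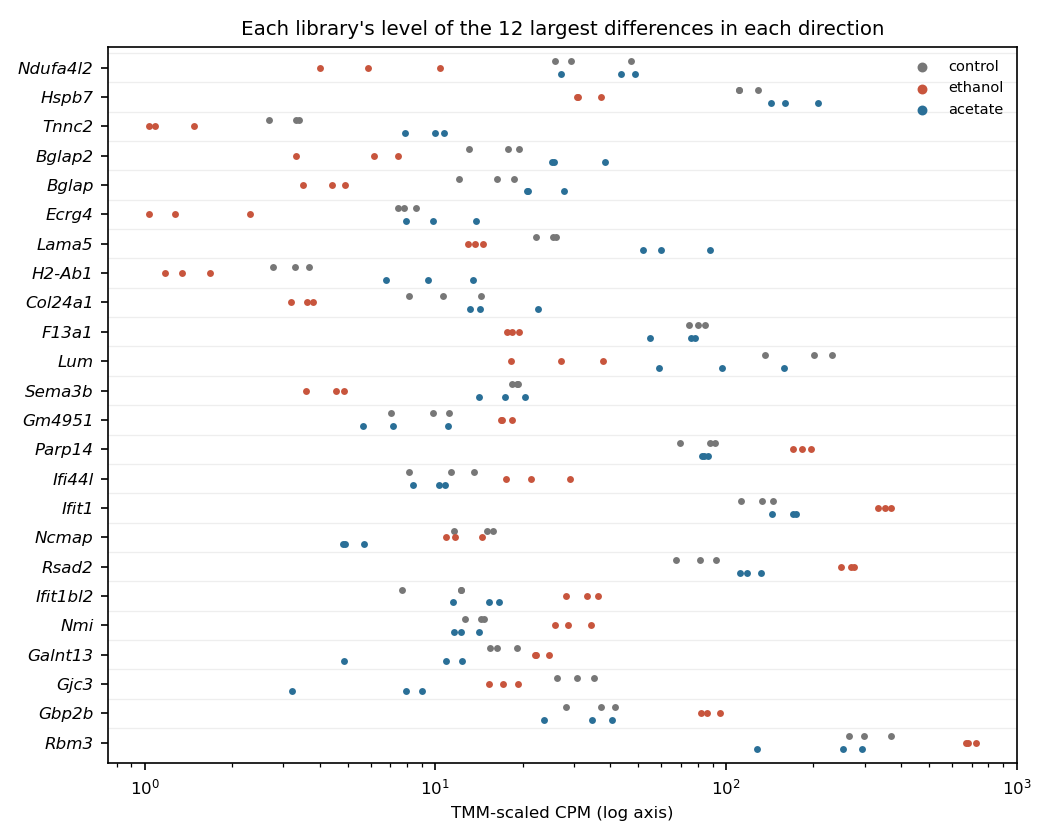
Level of each of the 12 largest rises (top) and 12 largest falls (bottom) in each of the 9 libraries (horizontal axis, TMM-scaled CPM on a log axis), with control in grey, ethanol in red and acetate in blue. In each row the 3 blue points lie apart from the 3 red points; for Bglap, Sema3b and F13a1 the grey points lie near the blue ones, and for Ncmap near the red ones.

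Genes of bone formation made up one of the groups that rose. Of 25 tested genes of osteoblasts and mineralisation, 9 were higher with acetate and none lower, 13 had acetate values all above the ethanol values and 2 all below, and the median log2 difference was 0.35, beside 2.87%, 15.2% and -0.01 over all genes. Bglap, which encodes osteocalcin, the protein that osteoblasts deposit in bone mineral, stood at 20.9, 27.7 and 20.7 CPM with acetate and 3.51, 4.40 and 4.88 CPM with ethanol (log2 difference 2.19 ± 0.19, adjusted p = 0.00103). Controls were at 18.7, 12.02 and 16.3 CPM, between the groups and nearer to acetate. Bglap2, its neighbouring and nearly identical copy, stood at 25.3, 38.4 and 25.6 CPM with acetate and 3.32, 6.17 and 7.41 CPM with ethanol (log2 difference 2.24 ± 0.27, adjusted p = 0.00362); reads of the copies may have been shared, so the split between them is uncertain. Bglap and Bglap2 kept their calls under all 23 alternatives, with a highest adjusted p of 0.0177 for Bglap.

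The RUNX core ACCACA, the sequence bound by the osteoblast factor Runx2, was searched on both strands in promoter windows from RefSeq (GRCm38.p6) that run from 250 bases before to 50 after the start of a gene. It is shown for Bglap, which held the 1 match among the 6 windows of called members. Capitals mark the match, which begins 132 bases before the start. The 250 bases before the start lie on the minus strand of mouse chromosome 3, at chr3:88384467-88384716 of GRCm38.
Bglap: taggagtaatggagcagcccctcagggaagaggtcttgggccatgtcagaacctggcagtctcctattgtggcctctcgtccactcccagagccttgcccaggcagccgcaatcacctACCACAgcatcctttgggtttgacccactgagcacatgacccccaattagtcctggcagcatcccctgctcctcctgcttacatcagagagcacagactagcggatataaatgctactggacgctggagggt
The motif was in 35% of 20 windows of tested members of the list, in 16.7% of 6 windows of called members and in 16.8% of all 32851 windows, so among the called members it was about as common as anywhere.

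Other members that rose included secreted or membrane proteins of the osteoblast. The homeobox factor Dlx5, also of this list, rose as well and is given with the hypertrophy genes below. Col24a1, a minor fibrillar collagen of bone, was at 14.2, 13.1 and 22.6 CPM with acetate, 3.18, 3.61 and 3.81 CPM with ethanol and 10.6, 8.14 and 14.4 CPM in controls (log2 difference 1.93 ± 0.23, adjusted p = 0.00362). Ifitm5, a membrane protein of mineralising osteoblasts, was at 17.1, 22.7 and 15.2 CPM with acetate and 9.53, 10.6 and 8.86 CPM with ethanol (log2 difference 0.84 ± 0.16, adjusted p = 0.0211). Alpl, the alkaline phosphatase that frees phosphate for mineral, was at 854, 1046 and 789 CPM with acetate and 549, 540.4 and 529.6 CPM with ethanol, where the 3 libraries were nearly level (log2 difference 0.72 ± 0.13, adjusted p = 0.0169). Its controls, at 858, 742 and 856 CPM, lay in the acetate range or just under it. The calls of Alpl and Ifitm5 were lost without any 1 of the 3 ethanol libraries, with adjusted p of 0.073 to 0.102.

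The main collagen of bone, Col1a1, stood at 12859, 16191 and 12045 CPM with acetate and 8324, 8052 and 8868 CPM with ethanol (log2 difference 0.69 ± 0.15, adjusted p = 0.0378). Its highest library was acetate replicate 2, and without that library the difference was 0.57 with an adjusted p of 0.0563. Its call was also lost without any other single library but acetate replicate 3 (adjusted p 0.0552 to 0.169). The call did not hold either with no filter on low values, with quantile scaling or with only the 6 libraries compared. Over all alternatives the highest adjusted p of Col1a1 in limma was 0.473. The master regulators of the osteoblast did not pass the test: Runx2 stood at 339.9, 277 and 339 CPM with acetate and 297, 301 and 345 CPM with ethanol (log2 difference 0.02 ± 0.13, adjusted p = 0.943) and Sp7, also called osterix, at 289, 316 and 324 CPM with acetate and 252, 267 and 285 CPM with ethanol (log2 difference 0.21 ± 0.11, adjusted p = 0.298). The osteoblast count was 10 without acetate replicate 2, and 3 without ethanol replicate 1, 2 or 3. It was 5 without any 1 of the 3 controls. With the replicate block 9 members were higher and 3 lower.

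**Figure D4:**
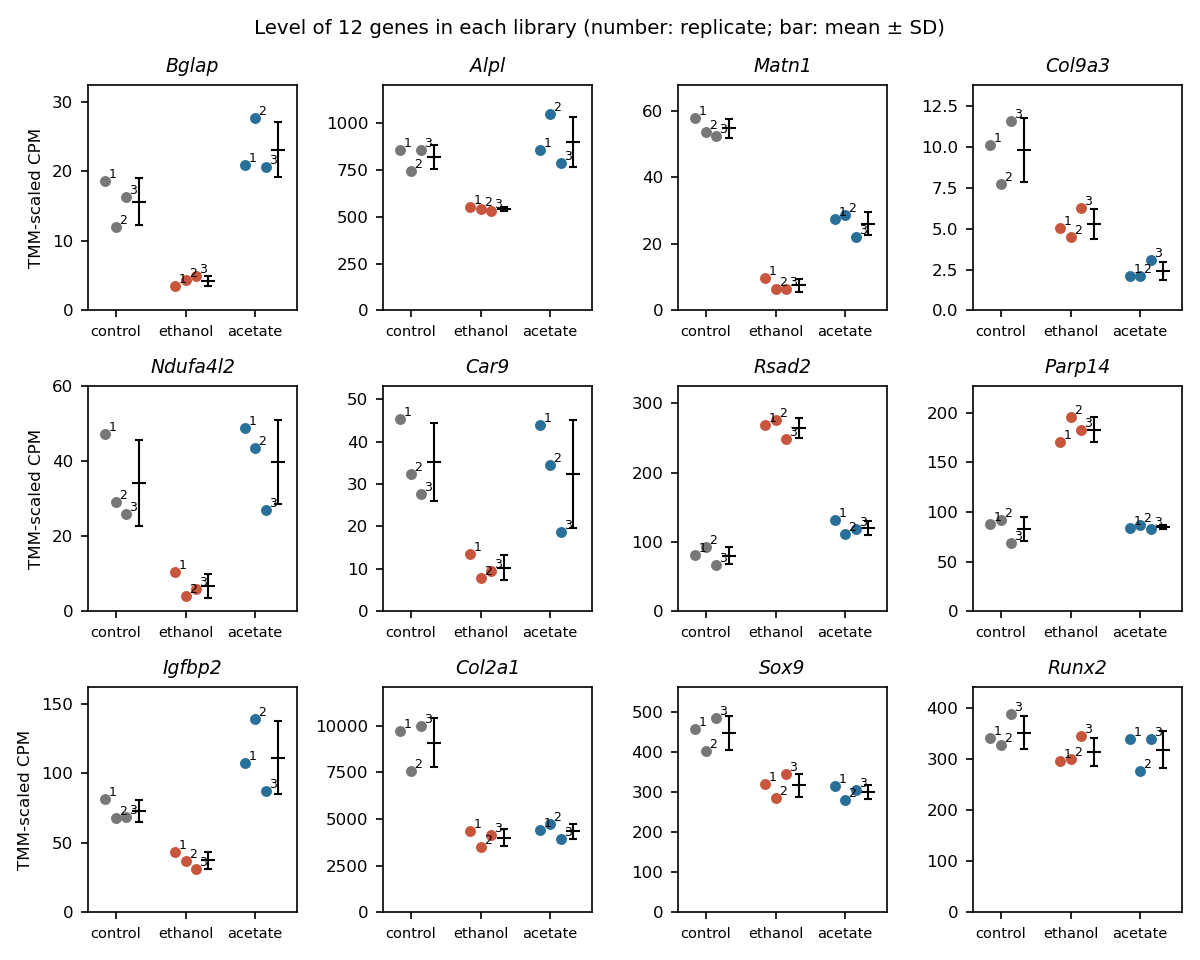
Level of 12 genes in each library (vertical axis, TMM-scaled CPM from 0) in the control, ethanol and acetate groups; points are libraries with their replicate number and the bar is the mean ± SD of 3. Bglap, Alpl, Ndufa4l2, Car9 and Igfbp2 are higher in acetate than in ethanol in all libraries, Rsad2 and Parp14 lower, while the acetate and ethanol points of Col2a1, Sox9 and Runx2 overlap.

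Genes of the enlarging, hypertrophic chondrocyte mostly had higher means with acetate, but Col10a1 did not. Of 17 tested members, 4 were higher with acetate and none lower (median log2 difference 0.25). Positive differences were found in 13, with acetate values all above ethanol in 7 and all below in 2. Over all genes 2.87% were higher, 0.909% lower, 15.2% all above and 12.6% all below. These shares are the background for every list count below as well. Ihh, the hedgehog signal that growth plate chondrocytes send as they begin to enlarge, stood at 10.1, 11.8 and 9.35 CPM with acetate and 5.70, 4.76 and 4.68 CPM with ethanol (log2 difference 0.92 ± 0.13, adjusted p = 0.00799). Its controls, at 20.6, 19.5 and 24.1 CPM, were above both groups. Without ethanol replicate 2 the adjusted p of Ihh was 0.0517. Alpl, above, was also of this list, as were Vegfa, given with the hypoxia genes, and Dlx5, a homeobox factor of bone and cartilage, at 64.4, 80.3 and 70.7 CPM against 46.7, 46.3 and 52.3 CPM (log2 difference 0.56 ± 0.12, adjusted p = 0.0379). Col10a1, the collagen that defines hypertrophic cartilage, did not pass the test with all 9 libraries and pointed the other way, with 99.8, 68.7 and 76.4 CPM with acetate, 105, 117 and 112 CPM with ethanol and 300.0, 255 and 253 CPM in controls (log2 difference -0.46 ± 0.15, adjusted p = 0.136). It passed, as lower in acetate, in 5 of the 23 alternatives, among them without acetate replicate 1 (-0.61, adjusted p = 0.045) and after removal of the GC trend (-0.51, adjusted p = 0.039). It was the member lower with the GC trend removed, where 6 were higher. The count of this list was 5 without acetate replicate 2, 2 without acetate replicate 3 or control replicate 1, 1 without ethanol replicate 1 or 3, and 0 without ethanol replicate 2. The call of Dlx5 was lost without acetate replicate 3 and without any 1 control or ethanol library (adjusted p 0.0554 to 0.177).

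The matrix of cartilage showed no common direction. Of 20 tested members, 3 were higher with acetate and 1 lower (3 and 2 with the block), 3 had acetate values all above ethanol and 2 all below, and the median log2 difference was -0.19. Over all genes 2.87% were higher, 0.909% lower, 15.2% all above and 12.6% all below. Members without overlap were therefore about as common as anywhere. Matn1, or cartilage matrix protein, an adaptor that links collagen and aggrecan, was at 27.5, 28.5 and 22.1 CPM with acetate, 9.68, 6.37 and 6.48 CPM with ethanol and 57.8, 53.8 and 52.6 CPM in controls (log2 difference 1.68 ± 0.17, adjusted p = 0.00154). Comp, a pentameric matrix protein of cartilage and tendon, was at 46.9, 53.6 and 48.7 CPM with acetate, 27.4, 20.9 and 30.4 CPM with ethanol and 107, 82.4 and 108 CPM in controls (log2 difference 0.91 ± 0.16, adjusted p = 0.0163). For both, ethanol was lowest and the controls were highest. Chad, a leucine-rich protein that binds chondrocytes to collagen, was low, at 1.96, 2.65 and 2.87 CPM with acetate and 1.19, 1.13 and 1.15 CPM with ethanol (log2 difference 0.68 ± 0.13, adjusted p = 0.0179).

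Col9a3, a chain of the type IX collagen that coats cartilage fibrils, was the member that fell, at 2.08, 2.09 and 3.06 CPM with acetate, 5.05, 4.50 and 6.30 CPM with ethanol and 10.1, 7.72 and 11.6 CPM in controls (log2 difference -0.88 ± 0.18, adjusted p = 0.0301). Its call was lost without acetate replicate 1, control replicate 1 or any 1 ethanol library (adjusted p 0.0598 to 0.132). Matn1 kept its call under every alternative, Comp lost it without ethanol replicate 1 or 2 (adjusted p 0.0603 and 0.0757 as lowest and highest), and Chad without any 1 ethanol library (adjusted p 0.073 to 0.0901). Without ethanol replicate 1 or 2, 1 member was called higher. Acan, the aggrecan core protein, stood at 604, 578 and 582 CPM with acetate and 667, 476 and 625 CPM with ethanol (log2 difference 0.01 ± 0.18, adjusted p = 0.971), and Col2a1 had a log2 difference of 0.12 ± 0.15 (adjusted p = 0.634). In both genes the groups overlapped and the controls, at 1169, 866 and 1324 CPM for Acan, were higher than either group.

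Among 17 regulators of chondrocytes, none rose and 2 fell. Sox5, a partner of Sox9 on cartilage genes, stood at 27.7, 25.9 and 28.9 CPM with acetate, 40.7, 39.8 and 43.98 CPM with ethanol and 40.6, 39.6 and 42.01 CPM in controls (log2 difference -0.57 ± 0.10, adjusted p = 0.0151). Ethanol and control were level for Sox5 and acetate was below both. Sox8, a relative of Sox9, was at 4.73, 4.86 and 4.44 CPM with acetate and 9.59, 6.76 and 9.14 CPM with ethanol (log2 difference -0.73 ± 0.14, adjusted p = 0.0234). Sox9 itself had a log2 difference of -0.07 ± 0.12 (adjusted p = 0.708). The call of Sox5 was lost without any 1 ethanol library (adjusted p 0.0665 to 0.0832) or after removal of the GC trend (-0.39, adjusted p = 0.0637), and that of Sox8 without acetate replicate 1, control replicate 1 or ethanol replicate 1 or 3 (adjusted p 0.0529 to 0.113). The count that fell was 1 without acetate replicate 1, control replicate 1 or ethanol replicate 2, and 0 without ethanol replicate 1 or 3, and 1 member rose without acetate replicate 2 or with the block.

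Basement membrane genes rose in 4 of 19 tested members and fell in 1 (median log2 difference 0.36, 10 with acetate all above ethanol and 1 all below). Over all genes 2.87% rose, 0.909% fell, 15.2% were all above and 12.6% all below. Lama5, the laminin chain that anchors many basement membranes, stood at 59.9, 88.00 and 51.9 CPM with acetate, 14.6, 13.7 and 12.9 CPM with ethanol and 25.3, 25.9 and 22.1 CPM in controls (log2 difference 2.16 ± 0.18, adjusted p = 0.00103). All acetate values of Lama5 were above all control values, and these were above all ethanol values. Col4a6, a type IV collagen chain, stood at 6.66, 10.3 and 8.97 CPM with acetate and 2.44, 2.89 and 3.74 CPM with ethanol (log2 difference 1.25 ± 0.17, adjusted p = 0.00622). The member that fell was Lamb3, which encodes a chain of laminin-332 (log2 difference -0.75 ± 0.15, adjusted p = 0.0236). Col18a1, whose product releases endostatin, also rose (log2 difference 0.83 ± 0.19, adjusted p = 0.0411). The count that rose was 8 without acetate replicate 2 and 6 without acetate replicate 3 or with the block, and 2 without any 1 ethanol library or control replicate 1. Lama5 and Col4a6 were called in every alternative; Lamb3 and Col18a1 lost the call without any 1 ethanol library, Lamb3 also without acetate replicate 1 and Col18a1 without any 1 control (adjusted p 0.0631 to 0.173).

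Proteins that shape elastic fibres and the space around cells were higher in 4 of 26 tested members and lower in 1 (median 0.28). Fbln1, a fibulin that binds fibronectin and laminin, stood at 16.4, 23.5 and 13.4 CPM with acetate and 6.44, 7.65 and 6.09 CPM with ethanol. Fbln2, a related fibulin, stood at 79.1, 83.2 and 65.7 CPM with acetate and 34.3, 29.6 and 31.7 CPM with ethanol. Their log2 differences were 1.25 ± 0.18 and 1.22 ± 0.13 (adjusted p = 0.00806 and 0.00231). Fbln1 lost its call in limma with only the 6 libraries compared (adjusted p = 0.0553). Controls were level with ethanol for Fbln1, at 7.86, 8.49 and 7.62 CPM, and lay between the groups for Fbln2, at 59.7, 50.5 and 59.5 CPM. Emilin2, an elastic fibre glycoprotein, and Ccn1, a matricellular protein, rose by less (0.83 ± 0.16 and 0.80 ± 0.18). Fbn1, the microfibril protein fibrillin-1, fell from 277, 309 and 299.5 CPM with ethanol to 217, 209 and 213 CPM with acetate, the level of the controls (195, 203 and 216 CPM; log2 difference -0.47 ± 0.10, adjusted p = 0.0331). The count that rose was 6 without acetate replicate 2 or 3, 7 with the block and 2 without acetate replicate 1 or any 1 ethanol library. The calls of Ccn1, Emilin2 and Fbn1 were each lost without acetate replicate 1 or any 1 ethanol library. Ccn1 and Fbn1 also lost theirs without any 1 control, and Fbn1 without acetate replicate 3 (limma, adjusted p 0.0525 to 0.178).

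Enzymes that hydroxylate and crosslink collagen rose in 4 of 26 tested members and fell in none (median 0.25). Besides F13a1, these were Loxl2, a lysyl oxidase, and P4ha1 and P4ha2, the catalytic subunits of the prolyl 4-hydroxylase that stabilises the collagen triple helix. Loxl2 stood at 9.30, 8.64 and 10.8 CPM with acetate, 4.11, 2.84 and 4.08 CPM with ethanol and 9.48, 6.82 and 9.96 CPM in controls (log2 difference 1.18 ± 0.17, adjusted p = 0.00793). P4ha1 stood at 1204, 831 and 881 CPM with acetate, 559, 521 and 517 CPM with ethanol and 1217, 1089.9 and 1044 CPM in controls (log2 difference 0.85 ± 0.15, adjusted p = 0.0162), and P4ha2 at 447, 482 and 330.0 CPM with acetate, 249.5, 224 and 209 CPM with ethanol and 517, 430.0 and 463 CPM in controls (0.87 ± 0.16, adjusted p = 0.0176). In all 3 genes the controls overlapped acetate and lay above ethanol. The count was 6 without acetate replicate 2, 7 without acetate replicate 3 and 2 without any 1 ethanol library. F13a1 and Loxl2 held under every alternative, P4ha1 was lost without any 1 ethanol library and P4ha2 without these or acetate replicate 1 (adjusted p 0.0518 to 0.0894).

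Small leucine-rich proteoglycans, which bind collagen fibrils, rose in 2 of 11 members and fell in 1. Lum, or lumican, stood at 158, 58.6 and 96.9 CPM with acetate, 37.9, 27.1 and 18.3 CPM with ethanol and 201, 232 and 137 CPM in controls (log2 difference 1.82 ± 0.37, adjusted p = 0.0294). Acetate replicate 2 was its lowest acetate library, and without it the difference was 2.18 (adjusted p = 0.00245). The call was lost without acetate replicate 1, control replicate 1 or 2, or any 1 ethanol library (adjusted p 0.0516 to 0.125). Ecm2, the member that fell, was low, at 3.07, 1.05 and 2.68 CPM against 6.10, 6.93 and 5.98 CPM with ethanol (log2 difference -1.23 ± 0.23, -0.92 without acetate replicate 2 and -0.71 with the GC trend removed), and lost its call without any 1 ethanol library (adjusted p 0.0786 to 0.104). Chad, given with cartilage, was the second that rose, and without any 1 ethanol library none of the list was called.

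Matrix proteases moved both ways, 3 of 18 tested members higher and 1 lower. Adamts1, which cuts versican and aggrecan, stood at 186, 199 and 179 CPM with acetate, 98.1, 100.5 and 90.2 CPM with ethanol and 183, 213 and 173 CPM in controls (log2 difference 0.96 ± 0.12, adjusted p = 0.00362). Its call held under every alternative, and acetate and control were level. Adamts9, a relative that cuts the same proteoglycans, was at 81.5, 84.2 and 83.4 CPM with acetate and 50.96, 47.8 and 57.3 CPM with ethanol (0.67 ± 0.11, adjusted p = 0.0131), and lost its call without ethanol replicate 1 or 2 (adjusted p 0.0663 and 0.0851 as lowest and highest). Mmp2, a gelatinase, rose by 0.56 and Mmp19 fell by 0.53 on the log2 scale; both calls were lost without acetate replicate 1 or any 1 control or ethanol library (adjusted p 0.0559 to 0.179). The count that rose was 1 without ethanol replicate 1 or 2 and 4 without acetate replicate 2.

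Targets of the hypoxia-inducible factors also held many rises. These factors are stable when oxygen is low, because the prolyl hydroxylases that mark them for destruction need oxygen; in the growth plate they act in the poorly perfused centre. Of 31 tested members, 9 were higher with acetate than with ethanol and none lower, 14 had acetate values all above ethanol and none all below, and the median log2 difference was 0.37, beside 2.87%, 15.2% and -0.01 over all genes for higher, all above and the median. Without acetate replicate 2 the count was 11, and with the block 11. Car9, a carbonic anhydrase on the cell surface, stood at 43.8, 34.5 and 18.8 CPM with acetate, 13.5, 7.98 and 9.51 CPM with ethanol and 45.4, 32.3 and 27.6 CPM in controls (log2 difference 1.51 ± 0.31, adjusted p = 0.0304). Egln3, one of the oxygen-sensing hydroxylases, was at 62.1, 38.2 and 40.5 CPM with acetate, 24.3, 18.2 and 18.99 CPM with ethanol and 58.4, 46.3 and 48.5 CPM in controls (log2 difference 1.14 ± 0.20, adjusted p = 0.0149). With Ndufa4l2, P4ha1 and P4ha2 they formed the 5 largest rises of the list, and in all 5 the mean of the controls was nearer to acetate than to ethanol.

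Vegfa, the growth factor that draws vessels into cartilage, stood at 535, 613 and 629 CPM with acetate, 332, 321 and 412 CPM with ethanol and 443, 406 and 556 CPM in controls (log2 difference 0.74 ± 0.15, adjusted p = 0.0305). The gene for the factor itself, Hif1a, did not pass the test. It stood at 408, 149 and 358 CPM with acetate and 311, 298 and 317 CPM with ethanol, where acetate replicate 2 was far below the other 5 libraries, and the difference was -0.14 ± 0.31 with that library and 0.31 without it (adjusted p = 0.783 and 0.0545). Under the other left-out libraries the HIF count was 6 without acetate replicate 1 or control replicate 1 or 2, and 2, 1 and 2 without ethanol replicate 1, 2 or 3. Ndufa4l2 kept its call throughout. Egln3 lost it without ethanol replicate 2 or 3 (adjusted p 0.0733 and 0.0831), Car9 without any 1 ethanol library, acetate replicate 1 or control replicate 2, and Vegfa without any 1 ethanol library, acetate replicate 3 or control replicate 1 (adjusted p 0.0511 to 0.149).

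The core of the hypoxia response element, ACGTG, was searched on both strands of the same promoter windows. It was in 57.1% of 35 windows of tested members, in 71.4% of 7 windows of called members and in 19.6% of all 32851 windows. A member with the match next to its start (16 bases before it) and one with the match far from it (229 bases before it) are shown, with the match in capitals. P4ha1 is on the plus strand at chr10:59323046-59323295 and Egln3 on the minus strand at chr12:54203875-54204124 of GRCm38.
P4ha1: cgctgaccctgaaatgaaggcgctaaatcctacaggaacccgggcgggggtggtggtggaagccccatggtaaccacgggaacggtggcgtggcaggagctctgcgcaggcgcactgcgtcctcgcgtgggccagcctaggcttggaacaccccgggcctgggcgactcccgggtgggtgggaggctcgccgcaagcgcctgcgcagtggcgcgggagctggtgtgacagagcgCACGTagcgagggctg
Egln3: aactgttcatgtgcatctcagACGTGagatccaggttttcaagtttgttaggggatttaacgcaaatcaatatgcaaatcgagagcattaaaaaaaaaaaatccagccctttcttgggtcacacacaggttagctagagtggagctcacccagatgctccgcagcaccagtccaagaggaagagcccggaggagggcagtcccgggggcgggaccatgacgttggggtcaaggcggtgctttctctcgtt
A match describes the letters only. The list was chosen as targets of these factors, so a share above that of all windows says nothing of acetate against ethanol.

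Glycolysis, the pathway from glucose to lactate, had higher means with acetate than with ethanol in most members, few of which passed the test. Of 23 tested members, 21 had positive differences and 16 had all acetate values above all ethanol values (15.2% of all genes did), with a median log2 difference of 0.47, but 2 were called. These were Slc16a3, the transporter that exports lactate, at 33.6, 43.2 and 33.8 CPM with acetate, 14.5, 10.6 and 11.9 CPM with ethanol and 34.8, 26.6 and 35.8 CPM in controls (log2 difference 1.51 ± 0.17, adjusted p = 0.00272), and Ldhb, a lactate dehydrogenase subunit, at 16.9, 17.3 and 16.4 CPM with acetate, 9.33, 9.14 and 10.8 CPM with ethanol and 19.4, 17.6 and 20.1 CPM in controls (0.74 ± 0.11, adjusted p = 0.00823). Slc16a3 held under every alternative, and Ldhb had an adjusted p of 0.06 without ethanol replicate 2. The count was 3 without acetate replicate 2, 8 without acetate replicate 3, 5 with the block and 1 without ethanol replicate 2, and the median without acetate replicate 2 was 0.38.

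Genes induced by interferon were the group that fell. Interferons signal through STAT transcription factors, and their target genes restrict viruses. Of 48 tested members none was higher with acetate and 15 were lower (0.909% of all genes were), 27 had all acetate values below all ethanol values (12.6% of all genes did) and none all above, and the median log2 difference was -0.45. The count was 28 without acetate replicate 2 and 20 with the block. Rsad2, or viperin, an enzyme that makes an antiviral nucleotide, stood at 131, 112 and 118 CPM with acetate, 269, 276 and 249 CPM with ethanol and 81.3, 92.3 and 67.5 CPM in controls (log2 difference -1.13 ± 0.13, adjusted p = 0.00362). Ifit1, which binds foreign RNA, stood at 174, 144 and 171 CPM with acetate, 352, 369 and 333 CPM with ethanol and 133, 145 and 113 CPM in controls (log2 difference -1.11 ± 0.13, adjusted p = 0.00359). In Rsad2 the groups were ordered control, acetate, ethanol with no overlap, whereas in Ifit1 acetate replicate 2 lay just inside the control range.

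Parp14, an ADP-ribosyltransferase of interferon signalling, stood at 84.3, 86.9 and 82.9 CPM with acetate, 171, 196 and 182 CPM with ethanol and 87.97, 91.9 and 69.3 CPM in controls (log2 difference -1.10 ± 0.13, adjusted p = 0.00359), so that acetate and control overlapped. Gbp2, a guanylate-binding protein that attacks intracellular microbes, was at 41.8, 47.9 and 35.3 CPM with acetate and 87.1, 99.8 and 76.5 CPM with ethanol (-1.06 ± 0.17, adjusted p = 0.0111). Ifit1bl2, a relative of Ifit1, was at 16.6, 11.5 and 15.2 CPM with acetate and 33.2, 36.3 and 28.3 CPM with ethanol (-1.13 ± 0.20, adjusted p = 0.0161). Members of the Ifit and Gbp families are close copies whose reads may have been shared. Outside the list, 4 more of the largest falls were Gbp2b, at 40.4, 23.6 and 34.7 CPM against 85.8, 95.7 and 81.9 CPM (-1.42 ± 0.21), Nmi, a partner of STAT proteins, at 14.1, 12.2 and 11.6 CPM against 28.5, 34.5 and 25.8 CPM (-1.16 ± 0.14), Ifi44l (-1.10 ± 0.22) and Gm4951 (-1.08 ± 0.22).

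Rsad2, Ifit1, Parp14, Gbp2b and Nmi kept their calls under every alternative. Gbp2 and Ifit1bl2 lost theirs without ethanol replicate 1 or 2 (adjusted p 0.0543 to 0.0876), and Ifi44l and Gm4951 without either of these, acetate replicate 3 or control replicate 1, with Gm4951 also without ethanol replicate 3 (adjusted p 0.0501 to 0.127). Both of these also lost the call with the GC trend removed (-0.79 with adjusted p = 0.113 for Ifi44l, -0.68 with adjusted p = 0.0623 for Gm4951). The count of the interferon list was 5, 4 and 8 without ethanol replicate 1, 2 or 3, and 13 to 15 without any 1 of the other libraries but acetate replicate 2. MHC class I presentation, which interferon also raises, had no called member among 13 by limma or voom (median -0.21; 2 lower at an unadjusted p under 0.05) and 4 lower without acetate replicate 2 (median -0.47).

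The interferon response element, searched as GAAANNGAAA on both strands, was in 53.7% of 41 promoter windows of tested members, in 68.8% of 16 windows of called members and in 3.44% of all 32851 windows. The list was chosen as genes induced by interferon, so a share above that of all windows describes the list. It says nothing of acetate against ethanol, and a match describes the letters only. Rsad2 is shown as the antiviral gene with a single match, 120 bases before its start, and Ifit1 for its pair, 104 and 85 bases before the start; capitals mark the matches. The Rsad2 window is on the minus strand at chr12:26456453-26456702 and that of Ifit1 on the plus strand at chr19:34640639-34640888 of GRCm38.
Rsad2: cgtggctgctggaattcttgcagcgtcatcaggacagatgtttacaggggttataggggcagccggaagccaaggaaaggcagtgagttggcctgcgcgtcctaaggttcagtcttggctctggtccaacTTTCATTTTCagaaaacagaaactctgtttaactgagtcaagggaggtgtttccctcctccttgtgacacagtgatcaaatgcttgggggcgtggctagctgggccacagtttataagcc
Ifit1: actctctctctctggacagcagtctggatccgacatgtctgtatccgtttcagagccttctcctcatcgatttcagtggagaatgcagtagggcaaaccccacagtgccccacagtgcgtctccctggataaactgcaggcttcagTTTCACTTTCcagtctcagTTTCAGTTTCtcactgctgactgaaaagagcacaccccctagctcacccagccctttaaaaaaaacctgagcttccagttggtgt
One of the Ifit1bl2 windows runs the other way over the same stretch, and its pair of matches, at chr19:34640785-34640794 and chr19:34640804-34640813, is the very pair of Ifit1, so these members share sequence. That stretch was counted for both genes.

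The insulin-like growth factor axis rose in 6 of 18 tested members and fell in none, with 13 members above ethanol in all acetate libraries, 1 below and a median log2 difference of 0.46; over all genes 2.87% rose, 15.2% were above in all and 12.6% below. The binding proteins of this axis hold the growth factors and proteases release them. Igfbp2, a binding protein, stood at 108, 139 and 87.4 CPM with acetate, 43.6, 37.3 and 31.4 CPM with ethanol and 81.7, 68.1 and 68.8 CPM in controls (log2 difference 1.53 ± 0.19, adjusted p = 0.00372). All acetate values of Igfbp2 were above all controls. Among the proteases, Htra3 was at 19.6, 27.3 and 27.6 CPM with acetate, 9.42, 9.57 and 10.8 CPM with ethanol and 10.1, 9.81 and 15.5 CPM in controls (1.22 ± 0.19, adjusted p = 0.00988), Pappa2 at 108, 86.5 and 93.97 CPM with acetate and 50.8, 64.5 and 52.8 CPM with ethanol (0.77 ± 0.15, adjusted p = 0.0217) and Htra1 at 180.4, 219.9 and 149 CPM with acetate and 111, 111 and 104 CPM with ethanol (0.73 ± 0.14, adjusted p = 0.0222). Stc2, an inhibitor of pappalysins, rose as well (0.68 ± 0.14, adjusted p = 0.0321). The count was 10 without acetate replicate 2, 9 with the block, 4 without acetate replicate 1, 1, 1 and 3 without ethanol replicate 1, 2 or 3, and 3 with control replicate 1 left out. Igfbp2 held under every alternative; the calls of the other 4 named here were lost without ethanol replicate 1 or 2, and those of Htra1, Pappa2 and Stc2 without ethanol replicate 3 or control replicate 1 too, Htra1 and Pappa2 without acetate replicate 1, and Stc2 without acetate replicate 3 or control replicate 2 or 3 (adjusted p 0.0512 to 0.14).

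In the Wnt axis, 4 of 30 tested members rose and none fell (median 0.25), and 3 of the 4 encode secreted inhibitors. Dkk1, which blocks the Wnt coreceptors, stood at 13.9, 14.3 and 16.5 CPM with acetate, 3.57, 3.56 and 5.75 CPM with ethanol and 9.76, 10.95 and 12.4 CPM in controls (log2 difference 1.61 ± 0.17, adjusted p = 0.00235), above the controls in every acetate library and called under every alternative. Sfrp2, which binds Wnt proteins, was at 72.4, 94.5 and 57.2 CPM with acetate and 31.9, 41.2 and 23.6 CPM with ethanol (1.19 ± 0.26, adjusted p = 0.0353). In all 3 groups Sfrp2 was lowest in replicate 3. Sost, or sclerostin, was at 3.28, 3.90 and 2.68 CPM with acetate and 1.19, 2.16 and 1.64 CPM with ethanol (0.69 ± 0.16, adjusted p = 0.0488), a call that held in 6 of the 23 alternatives. Fzd7, a Wnt receptor, was the fourth (0.48 ± 0.10, adjusted p = 0.0307). The count was 9 without acetate replicate 2, and with the block 6 rose and 2 fell. It was 1 without control replicate 1 or any 1 ethanol library, and 2 without either other control; Sfrp2, Sost and Fzd7 lost their calls without any 1 ethanol library, acetate replicate 1 or control replicate 1, Sost and Fzd7 also without the other controls (adjusted p 0.0547 to 0.167).

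Of the BMP and TGF-beta axis 3 of 29 tested members rose and none fell (median 0.06). Nog, or noggin, which binds BMPs and keeps them from their receptors, stood at 20.7, 20.6 and 18.1 CPM with acetate, 10.5, 12.5 and 11.6 CPM with ethanol and 19.4, 20.8 and 22.2 CPM in controls (0.73 ± 0.11, adjusted p = 0.00988, and adjusted p = 0.0545 without ethanol replicate 1). Smad9, which carries the BMP signal, stood at 20.2, 16.7 and 21.1 CPM with acetate and 12.5, 13.2 and 13.6 CPM with ethanol (0.52 ± 0.11, adjusted p = 0.0383). The call of Smad9 was lost without any 1 library other than acetate replicate 2 (adjusted p 0.0659 to 0.155). The count was 4 without acetate replicate 2, 2 without acetate replicate 3 or control replicate 2 or 3, 1 without acetate replicate 1, control replicate 1 or ethanol replicate 2 or 3, and 0 without ethanol replicate 1.

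Few of the enzymes that handle the compounds themselves passed the test. Of 20 tested genes of ethanol and aldehyde oxidation none was called by limma or by voom on recovered reads (4 higher and 2 lower at an unadjusted p under 0.05), against 1 higher without acetate replicate 2 and 1 with the block (median log2 difference 0.12). Adh5, the alcohol dehydrogenase found in most tissues, was at 71.1, 62.5 and 55.9 CPM with acetate and 64.1, 64.9 and 54.5 CPM with ethanol (0.04 ± 0.13, adjusted p = 0.841), which overlapped. Aldh2, the mitochondrial enzyme that oxidises acetaldehyde to acetate, was at 227, 315 and 165 CPM with acetate and 157, 169 and 136 CPM with ethanol (0.57 ± 0.22, adjusted p = 0.188), with its highest value in acetate replicate 2. Of 16 tested genes of acetate uptake and acetyl-CoA supply 1 rose, the transporter Slc16a3 described above (median 0.07). Acss2, which makes acetyl-CoA from acetate in cytosol and nucleus, stood at 29.5, 28.2 and 17.7 CPM with acetate and 20.03, 18.3 and 14.3 CPM with ethanol (0.47 ± 0.20, adjusted p = 0.226), and Acly, which makes it from citrate, at 246, 283 and 217 CPM with acetate and 234, 238 and 219 CPM with ethanol (0.10 ± 0.12, adjusted p = 0.608). Acss1, the mitochondrial synthetase, was below the level tested.

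Acetyl-CoA is the donor for lysine acetylation, and of 31 tested writers, erasers and readers of that mark 1 rose (median 0.05), near the share over all genes (2.87%). Without acetate replicate 2, 1 was higher and 1 lower. With the GC trend removed 2 were higher and 3 lower and the median was -0.05, and with the block 1 was higher and 2 lower. The 1 that rose was Hdac11, a deacetylase, at 25.3, 27.9 and 16.8 CPM with acetate, 10.8, 10.9 and 8.70 CPM with ethanol and 23.6, 20.3 and 17.6 CPM in controls (1.10 ± 0.20, adjusted p = 0.0159), a call lost without any 1 ethanol library (adjusted p 0.0576 to 0.0799).

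**Figure D5:**
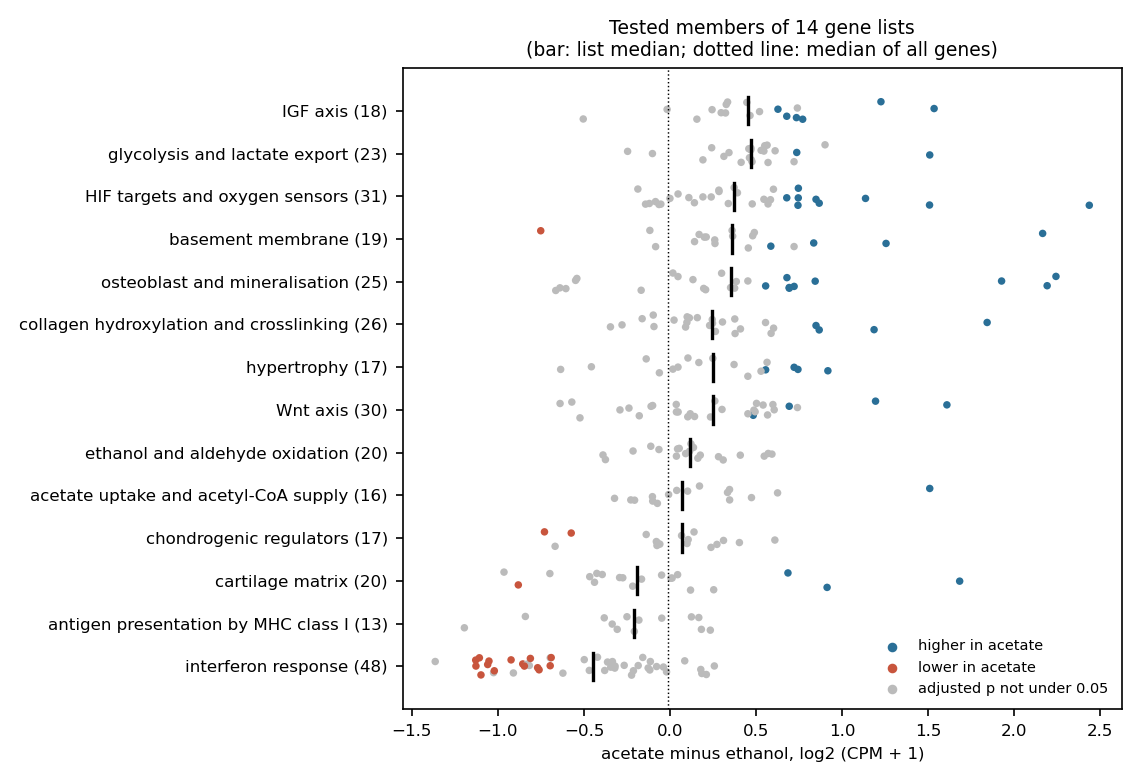
Difference between acetate and ethanol (horizontal axis, log2 of CPM plus 1) of every tested member of 14 gene lists, 1 row per list with the number of members in brackets. Blue and red points are members called higher or lower in acetate, grey points the rest, black bars list medians and the dotted line the median of all genes (-0.01); the interferon row lies furthest left, with a median of -0.45, and the glycolysis row furthest right, with 0.47.

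Set beside the controls, the called genes fell in different places. Of the 370 genes higher with acetate, the control mean lay between the other groups for 299, above both for 55 and below both for 16. Of the 117 lower with acetate, it lay between for 68, below both for 39 and above both for 10. These places use the same libraries as the calls and are a description only.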

How the data were processed

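Log2 values of 26202 genes in 9 libraries were deposited by the authors in 1 table, TMM-normalised per the file's name. Per the labels' protocols, the kit was Illumina's stranded mRNA preparation. Submitters' processing notes name STAR 2.7.8a, Bowtie2 2.2.5, Partek and mm10; annotation and counting are not given in the sources used here. Genes without reads sat at a floor for each library, as an offset of 1e-05 read would give; it was subtracted after raising 2 to each value, which gave TMM-scaled CPM. Of low values, 85.7% to 87.4% were whole reads within 0.02, so they were not treated as counts. Log2 of CPM plus a pseudocount of 1 was modelled in limma 3.58.1 (R 4.3.3) with 1 mean for each of 3 groups over 9 libraries and a mean trend in the variances, a design that shares 1 spread. P-values were two-sided with Benjamini-Hochberg adjustment over 12873 genes. The procedure was tested on simulated data.

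Replicate numbers come from the labels; same-numbered acetate and ethanol libraries deviated from their group means with correlations of 0.15, 0.25 and 0.62 across genes, so the numbers were taken to pair libraries; of the other combinations, acetate 2 with ethanol 1 reached 0.183, above the first of these. The members and gene lists were chosen with earlier results of these data known, and so were the test, the alternatives and the rule for naming genes. That rule took the 12 largest differences in each direction among called genes averaging 5 CPM or more whose groups did not overlap, the 5 called members with the largest differences of any list described, and 17 genes regardless of their values. Lists could share members, so their counts are not independent. Some called members of lists are counted but not reported here by name. Alternatives changed the filter, the scaling, the pseudocount, the block, the variance model and the libraries, removed a GC trend (lowess span 0.3), or ran voom on recovered reads. Gene positions and GC content came from GENCODE M21 (GRCm38, the same build as mm10); 24922 genes matched by symbol, 453 by synonym and 827 not at all. Further tools were pandas 2.3.3 and matplotlib 3.10.9 under Python 3.11.15.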

Additional observations from a re-analysis of the deposited data

How the results depend on the processing

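Against 487 called genes (370 higher in acetate, 117 lower), leaving out 1 library gave 113 to 1113 in all, 99 to 737 higher and 14 to 376 lower. A mean of at least 5 CPM gave 314 (239 and 75) of 10932 genes tested, and fitting only the 6 libraries compared gave 107 (89 and 18); the first tests fewer genes and the second has fewer samples. The replicate block gave 829 (604 and 225), and ended no call among the 85 named genes that were called. Of those 85 calls, 55 were lost with only the 6 libraries compared, 19 with no filter, 10 with quantile scaling, 6 with the GC trend removed, 5 with median-of-ratios scaling, 4 of those still tested at 5 CPM or more and 0 to 2 under the other settings that keep all 9 libraries; leaving out 1 library lost 1 to 57. Removing the GC trend gave 1445 (825 and 620), the block with the GC trend removed 3935 (2036 and 1899), the block without acetate replicate 2 4261 (2451 and 1810), and library weights, whose estimation may not have converged, 3721 (1961 and 1760). For these the cause was not tested. Other pseudocounts, no filter, median-of-ratios or quantile scaling, variances without a trend and voom gave 432 to 516, within 1.5 times of the main count. With only the 6 libraries compared, 1 of the 9 called HIF targets remained in the count, as did 3 for 9 in the osteoblast list. The count was 2 for 6 in the insulin-like growth factor axis and 7 for 15 in the interferon list. Calls held under all 23 alternatives for 53 genes higher and 10 lower in acetate. No named call changed direction under any alternative run. List medians of chondrogenic regulators, fibrous collagens and small leucine-rich proteoglycans turned negative with quantile scaling (-0.01, -0.05 and -0.06), so no direction is given for them. With the GC trend removed those of chondrogenic regulators, lysine acetylation genes, NF-kB targets and immediate early genes did (-0.04, -0.05, -0.03 and -0.04). Without acetate replicate 2 the medians of chondrogenic regulators, NF-kB targets and immediate early genes were negative too (-0.03, -0.06 and -0.03). Median-of-ratios scaling moved the median of all genes from -0.01 to -0.03. Reads per library limit genes near 1 CPM, where 1 read is worth up to 0.0348 CPM.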

Other observations

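Ribosomal protein genes nearly all had a higher mean with acetate than with ethanol, but none passed the test. Of 78 tested members 77 had positive log2 differences (median 0.44, and 0.31 without acetate replicate 2), none had acetate values all above ethanol, and none was called by limma or voom, with 18 higher at an unadjusted p under 0.05 and 6 higher with the replicate block. Over all genes, 2715 of 12873 were at an unadjusted p under 0.05 in either direction, the background for such counts here. Subunits of the respiratory chain had 53 of 69 positive, a median of 0.21 and none called (7 higher at an unadjusted p under 0.05). Among 25 genes of the tricarboxylic acid cycle none was called either, with 4 higher at an unadjusted p under 0.05. None of 30 genes of DNA replication, 25 of mitosis, 23 of cholesterol synthesis, 17 of fatty acid synthesis, 28 immediate early genes and 17 clock genes was called by limma or voom, with 4, 1, 1, 2, 9 and 2 of them at an unadjusted p under 0.05. Without acetate replicate 2, 2 immediate early genes and 1 cholesterol gene were called higher and 1 DNA replication gene lower. With the replicate block 3 immediate early genes were higher and 2 lower, 2 clock genes and 1 of the respiratory chain were higher, and none of the tricarboxylic acid cycle, DNA replication, mitosis, cholesterol or fatty acid lists was called.

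Secreted defence proteins split. Of 9 tested complement and acute phase genes, 4 had acetate values all above ethanol and 1 all below. Without acetate replicate 2, 5 complement and acute phase genes were called higher and 1 lower. The summed level of the 9 was nevertheless lower with acetate, at a mean of 523 CPM against 568 CPM with ethanol, a difference that was not tested. Complement and acute phase genes rose in 3 of 9 tested members, among them C1s1, a protease that starts the classical complement pathway, at 61.01, 42.5 and 47.8 CPM with acetate, 33.2, 29.9 and 28.3 CPM with ethanol and 73.4, 77.6 and 64.1 CPM in controls (0.70 ± 0.15, adjusted p = 0.0351). Serping1, the inhibitor of that protease, was low but rose with it, at 2.03, 2.73 and 1.84 CPM against 0.709, 0.649 and 0.669 CPM (0.92 ± 0.14, adjusted p = 0.00806). Among 25 NF-kB targets, chemokines and cytokines 1 rose and 1 fell, where 2.87% and 0.909% of all genes did. Without acetate replicate 2, 1 rose and 2 fell. Cxcl12, the chemokine that holds blood stem cells in marrow, stood at 681, 572 and 630.4 CPM with acetate, 388, 406 and 357 CPM with ethanol and 472, 487 and 455 CPM in controls (0.71 ± 0.11, adjusted p = 0.00988), and Ccl2, which draws monocytes, at 6.58, 5.61 and 7.42 CPM with acetate, 11.4, 10.1 and 10.5 CPM with ethanol and 4.26, 3.96 and 3.73 CPM in controls (-0.64 ± 0.12, adjusted p = 0.0215). For Ccl2, acetate lay between a lower control and a higher ethanol group. Calls were lost without ethanol replicate 2 for Serping1 (adjusted p 0.0504), ethanol replicate 2 or 3 for Cxcl12 (adjusted p 0.0504 and 0.0549 as lowest and highest), any 1 ethanol library or acetate replicate 1 for Ccl2, and those or any 1 control for C1s1 (adjusted p 0.0527 to 0.156). With the GC trend removed Ccl2 had a difference of -0.42 and lost its call (adjusted p = 0.0661).

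Among stress genes, 2 of 22 antioxidant genes fell and 1 rose, and without acetate replicate 2, 3 fell and 1 rose. Nqo1, a quinone reductase that NRF2 induces, stood at 21.6, 15.9 and 15.2 CPM with acetate, 33.2, 31.5 and 26.7 CPM with ethanol and 24.6, 22.2 and 22.5 CPM in controls (-0.77 ± 0.15, adjusted p = 0.0238), and Srxn1, which repairs peroxiredoxins, at 40.8, 42.5 and 40.7 CPM with acetate, 55.6, 64.97 and 56.6 CPM with ethanol and 43.9, 40.4 and 47.2 CPM in controls (-0.50 ± 0.11, adjusted p = 0.0375). For both, ethanol was highest; acetate lay below every control value for Nqo1 and overlapped the controls for Srxn1. Sod3, the secreted superoxide dismutase, rose (0.53 ± 0.11, adjusted p = 0.032). All 3 calls were lost without any 1 ethanol library or control replicate 1 or 2 (adjusted p 0.0509 to 0.189).

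Cdkn1c, the imprinted cell cycle inhibitor p57 that marks chondrocytes leaving division, stood at 90.8, 89.6 and 81.2 CPM with acetate, 55.7, 46.1 and 43.4 CPM with ethanol and 106, 90.00 and 86.04 CPM in controls (0.84 ± 0.13, adjusted p = 0.00988), and lost its call without ethanol replicate 2 or 3 (adjusted p 0.0535 and 0.0659). It was the 1 called gene among 12 tested imprinted growth genes. Tpm2, a tropomyosin, was the 1 called of 16 contractile genes, at 113, 147 and 111 CPM with acetate, 70.9, 67.4 and 70.6 CPM with ethanol and 77.1, 69.5 and 70.96 CPM in controls (0.81 ± 0.13, adjusted p = 0.0104), and lost the call without ethanol replicate 1 or 2 (adjusted p 0.0505 and 0.0677). Summed endothelial markers were lower with acetate (19.4 to 20.7 CPM) than with ethanol (25.5 to 31.2 CPM). The sum was mostly Erg, a factor also made by chondrocytes. Cldn5 was at 0 in all 6 libraries, and 6 of 11 markers were under 1 CPM everywhere. Vwf overlapped between the groups. Pecam1 was low and also lower with acetate, at 0.635, 1.08 and 0.732 CPM against 1.36, 1.44 and 1.48 CPM with ethanol. Egfl7, the 1 called member of that list, went the other way, at 2.26, 2.53 and 1.84 CPM with acetate and 1.22, 1.35 and 0.946 CPM with ethanol (0.56 ± 0.13, adjusted p = 0.0437), and lost its call after removal of the GC trend (0.37, adjusted p = 0.0983) and without any 1 library but acetate replicate 2 or 3 (adjusted p 0.0611 to 0.184).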
